A study of Mus musculus with 4 samples.

Results

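This report describes how the liver of aging diabetic mice given metformin differed in gene expression from the liver of naturally aging mice, by a comparison of 1 array for each group. The series holds 4 arrays, and both arrays compared were chosen by their labels. The natural aging group is the only one not labelled diabetic, and the metformin group is labelled as diabetic, aging and treated with metformin, a biguanide that lowers blood glucose. The other arrays, aging diabetic mice without treatment (here untreated diabetic) and aging diabetic mice given astragalus polysaccharide (APS, from the root of a medicinal plant) together with metformin, are shown beside them. All 4 groups were male mice, fasted for 12 hours, and whole liver was taken. The labels give no strain, age, dose, route or method of inducing diabetes, and whether each RNA is that of 1 animal or of pooled animals is not stated. The sample titles carry 60 days for every group, without saying what was counted.

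Both the diabetic state and the drug differ between the arrays compared, so a difference between them cannot be assigned to either, and the effect of metformin cannot be told apart from that of diabetes in this pair. The untreated diabetic array is therefore given beside each gene whose levels are listed, and a gene given by its difference alone carries the value of the pair only. With 1 array a group there is no replicate check: no test was run, no spread between animals is known, and "higher" and "lower" describe these arrays only.

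A level is the log2 of the processed spot signal less the array's 75th percentile, so that 75% of an array's spots lie below 0 and each unit is a factor of 2. A gene was compared where its probe was well above background on at least 1 of the 2 arrays, and was counted as higher or lower from 2-fold on. A gene seen above background on a single array gives a bound, written as at least N-fold. A bound holds for this scaling and detection filter, and other settings can put it lower. Levels are given in the order natural aging, untreated diabetic, metformin, APS plus metformin, with "dim" for a probe not well above background and "no value" where the spot was an outlier. The measurement error that the image analysis gave had a median of 0.16 log2 for a difference, and it covers the spots only. In bulk RNA, fewer cells of a type and less RNA per cell cannot be told apart.

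Of 23462 gene symbols on the array, 22409 had a usable probe and 15932 could be compared. Well above background on both arrays were 13492 genes, on the metformin array alone 2156, and on the natural aging array alone 284. The metformin array also had more spots well above background (37402 against 33668) and a higher 75th percentile of the signal (3589 against 2699.5). Brightness moved with the difference: genes measured on both arrays had a median difference of 0.16 log2 at mean levels from -2 to 0, -0.34 from 2 to 4, and -0.54 from 4 up. The part of these array properties in the results below was not tested. For some lists of bright genes, a second median is given, called against genes as bright. It sets each measured member's difference against the median of all genes in its own band of brightness. Bands were split at -2, 0, 2 and 4. This summary, and the lists it is given for, were chosen after the data were seen. The Y-linked gene Eif2s3y was measured on all 4 arrays, with levels of 1.76, 1.26, 1.51 and 1.76, and Xist, which the inactive X chromosome transcribes, was at or near background (dim, dim, -4.85 and -3.88), as the label male has it.

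The liver of mice carries sex-specific programmes that pulses of growth hormone set through the transcription factor STAT5b; males and females differ in sulfotransferases, cytochromes P450 and other enzymes of steroid and drug metabolism. Metformin enters hepatocytes through organic cation transporters, inhibits the respiratory chain, activates the kinase AMPK and lowers glucose output. The liver also makes hepcidin, the hormone that closes the iron exporter ferroportin, under control of bone morphogenetic protein (BMP) and inflammatory signals.

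On the metformin array, 2045 genes (12.8% of those compared) were at least 2-fold higher than on the natural aging array and 743 (4.66%) were at least 2-fold lower, 17.5% in all, while 13144 (82.5%) lay under 2-fold. The counts of each list below are read against these shares, and a share near them is no result about a list. Female-biased liver genes, hepcidin, fetal growth genes, interferon-stimulated genes and the cell cycle list lay on the higher side. Male-biased liver genes, heat shock chaperones, pancreatic enzymes and red cell genes lay on the lower side. At 8-fold or more, 131 genes were higher and 31 lower. Of the higher genes, 719 rest on a bound, and of the lower genes 153.

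**Figure D1:**
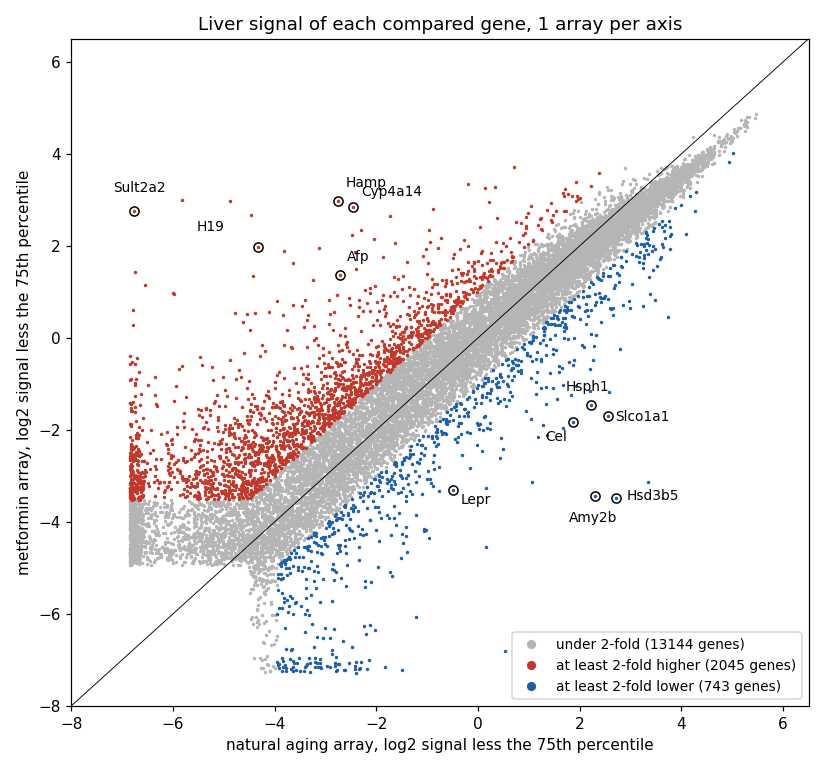
Each point is 1 of the 15932 genes compared, with its level on the natural aging array on the horizontal axis and on the metformin array on the vertical axis (log2 signal less the 75th percentile); red marks genes at least 2-fold higher and blue at least 2-fold lower, circles mark 11 named genes, and levels of dim probes are shown as measured. The 2045 red points include a column at the left edge of genes that were dim on the natural aging array, and Hamp, Cyp4a14 and Sult2a2 stand far above the diagonal while Hsd3b5, Amy2b and Slco1a1 stand far below it.

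**Figure D2:**
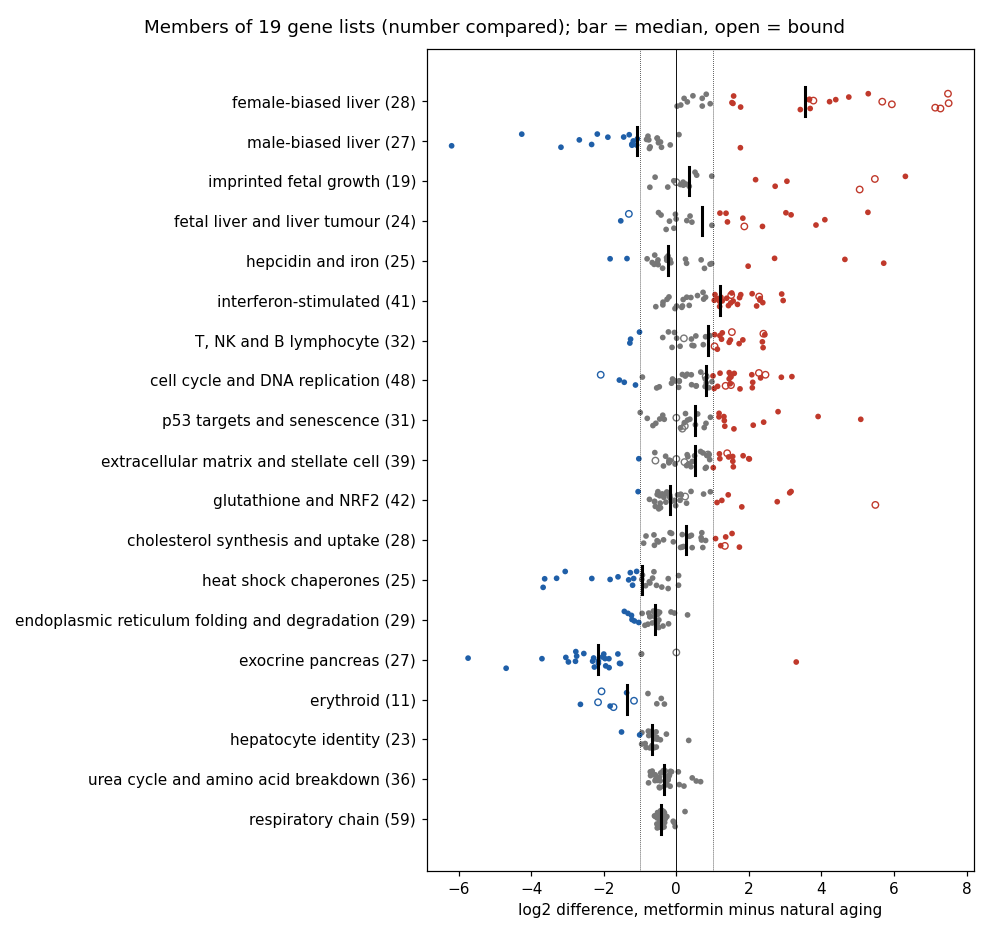
Each point is 1 compared member of 19 gene lists, placed by its log2 difference (metformin minus natural aging); filled points were measured on both arrays, open points are bounds, black bars are list medians, and dotted lines mark 2-fold. The female-biased list has the highest median (3.54) and the pancreatic list the lowest (-2.15), while the respiratory chain list is a tight cluster at -0.42.

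The largest differences belonged to genes known to be more abundant in female than in male mouse liver. Of 28 compared members of this list, 19 were at least 2-fold higher and none lower, and all 28 lay above 0. The median was 3.54 log2, or 1.56 over the 21 members measured on both arrays. Against natural aging the same list had a median of 1.40 on the untreated diabetic array, with 15 of 23 members higher (8.21% of all genes compared there were higher and 6.1% lower). On the APS plus metformin array it was 2.73, with 20 of 27 higher (6.12% of all genes higher and 6.64% lower). These comparisons share the natural aging array but not all members: Sult2a1 and Sult2a6, for example, had no value on the untreated diabetic array. The medians therefore rest on different sets of genes. Over the 24 members compared between metformin and untreated diabetic, the median difference was 0.44 log2.

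Sult2a2, a sulfotransferase of bile acids and hydroxysteroids, had levels of dim, -0.39, 2.76 and 3.09, so that it was dim in natural aging alone and highest in the combination group, and the metformin array lay at least 155-fold above natural aging. Sult2a1 (dim, no value, 2.67 and 2.83) was at least 140.4-fold higher, Sult2a6 (dim, no value, 2.97 and no value) at least 179-fold and Sult2a4 (dim, -1.47, 1.42 and 1.67) at least 61.4-fold. Over all settings, the lowest differences of Sult2a1, Sult2a6 and Sult2a4 were 6.24, 4.89 and 5.63 log2. These are closely related copies whose probes may share target, so they are not separate evidence. Sult1e1, which inactivates estrogens, was measured on natural aging too, with levels of -1.74, no value, 2.66 and 3.22, and was 21.0-fold higher.

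Other members separated the diabetic arrays from natural aging as well. Cyp4a14, a fatty acid hydroxylase and target of PPAR-alpha, had levels of -2.45, 2.29, 2.84 and 2.68, all diabetic arrays lying within 1 log2 of each other and metformin 39.1-fold above natural aging. Slc22a27, an organic anion transporter, had levels of -3.95, -0.08, 0.81 and -0.67 and was 26.96-fold higher, with metformin the highest array. Among members chosen after their values were seen, the steroid hydroxylase gene Cyp17a1 had levels of -3.41, 1.85, 0.81 and 2.06, with untreated diabetic above metformin. Hao2, a peroxisomal hydroxy acid oxidase, had levels of -3.82, -4.29, -0.16 and -3.61, so that only the metformin array was high. Sult3a1 (dim, dim, 1.16 and -0.26) was dim on both arrays without metformin. Members that stayed under 2-fold include Cyp2b9 (0.71 log2), Prlr (0.21), Cyp3a41a (0.12) and Cyp2a4 (0.02), which were also chosen after their values were seen.

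**Figure D3:**
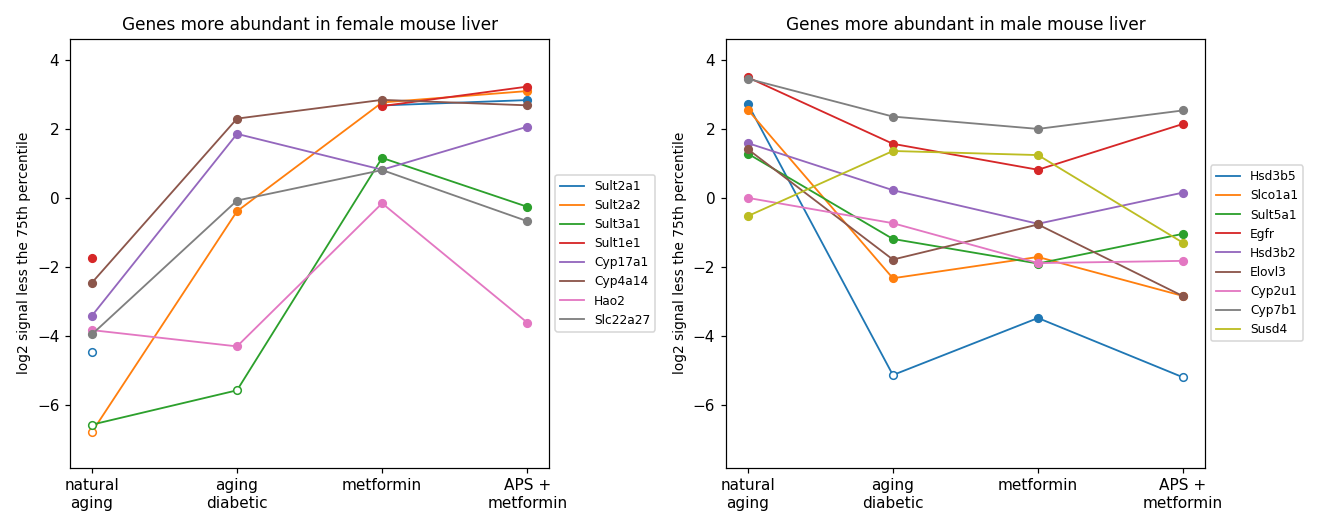
Levels of 8 genes known as more abundant in female liver (left) and 9 in male liver (right) on the 4 arrays, 1 array a group (log2 signal less the 75th percentile); open circles are dim, gaps are outlier spots, and lines only join a gene's values. All 8 genes on the left are lowest or near their lowest in natural aging and higher with metformin, whereas 8 of the 9 on the right are highest in natural aging and Susd4 is not.

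Genes more abundant in male liver went the other way. Of 27 compared, 14 were at least 2-fold lower and 1, Susd4, was higher, with a median of -1.07 (-0.64 to -1.16 under the other scalings). Against genes as bright the median was -0.75. Against natural aging the medians were -0.85 on the untreated diabetic array and -1.21 on the combination array. Hsd3b5, a hydroxysteroid dehydrogenase of male liver, had levels of 2.72, dim, -3.47 and dim and was 73.1-fold lower with an error of 0.20 log2. Slco1a1, an uptake carrier for bile acids and steroid conjugates, had levels of 2.55, -2.32, -1.71 and -2.84 and was 19.1-fold lower. In both genes natural aging stood far above all 3 diabetic arrays, treated or not. Sult5a1 (1.28, -1.19, -1.90 and -1.04) was 9.06-fold lower. Egfr, the receptor of epidermal growth factor, had levels of 3.49, 1.57, 0.81 and 2.14, 6.38-fold lower with metformin, and its other probes differed by -3.76 to -2.52 log2. Elovl3, a fatty acid elongase, had levels of 1.41, -1.78, -0.77 and -2.84, 4.53-fold lower. Cyp2u1 (0.00, -0.73, -1.89 and -1.82), a long-chain fatty acid hydroxylase, was 3.70-fold lower, and both metformin arrays were below the untreated diabetic array. Serpina4-ps1, a pseudogene that the ranking of all genes put first among lower genes, had levels of 3.34, -2.67, -3.13 and -2.16 and was 88.7-fold lower.

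The growth hormone and STAT5 list had 4 of 14 compared members lower and 1 higher, with a median of -0.60 that stayed below 0 under every scaling. Cish, a feedback inhibitor that STAT5 induces, had levels of 1.65, -2.07, -0.65 and 0.02, highest in natural aging and 4.94-fold lower with metformin. Socs3, an inhibitor of cytokine receptors, had levels of 2.32, -0.30, 0.78 and 0.27 and was 2.91-fold lower. Igfals, the serum subunit that carries IGF1, had levels of 1.14, -0.25, -0.45 and -1.03 and was 2.999-fold lower. Cux2, a repressor that marks female liver, had levels of -3.89, -1.32, -2.33 and -0.75 and was 2.95-fold higher, though both the untreated diabetic and the combination array exceeded metformin. The growth hormone receptor gene Ghr and Igf1 lay under 2-fold, at -0.93 and -0.53 log2, both named after their values were seen.

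Hepcidin stood out in iron metabolism. Hamp, the hepcidin gene, had levels of -2.75, 1.60, 2.97 and 3.43, a step from the lowest level in natural aging to the highest with metformin and APS. Metformin was 52.5-fold above natural aging, with an error of 0.19 log2. Its copy Hamp2, whose probe may share target with that of Hamp, had levels of -2.30, -0.25, 2.34 and no value, in the same order over the arrays with a value, and was 25.02-fold higher. The promoters of both genes are shown because they are nearly the same sequence and differ in the core of the BMP response element. RefSeq windows of GRCm38.p6 run from 250 bases before to 50 after the start site, and 276 of 303 aligned positions (91.1%) agree between them. Capitals mark GGCGCC, the BMP element core, which reads alike on both strands and is in 11.9% of all 32851 windows, and TTCNNNGAA, the spacing that STAT factors bind, which is also its own complement and is in 8.3%. Hamp, on the minus strand at chr7:30943980-30944279, holds both, and Hamp2, on the minus strand at chr7:30924132-30924431, holds only the second. A match is a description of letters, not a site.
Hamp: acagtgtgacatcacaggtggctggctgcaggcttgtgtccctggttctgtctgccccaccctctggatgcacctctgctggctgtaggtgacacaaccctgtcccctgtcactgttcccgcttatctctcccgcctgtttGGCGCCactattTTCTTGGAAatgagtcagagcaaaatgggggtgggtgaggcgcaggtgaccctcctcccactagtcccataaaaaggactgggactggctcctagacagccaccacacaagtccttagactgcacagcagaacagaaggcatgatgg
Hamp2: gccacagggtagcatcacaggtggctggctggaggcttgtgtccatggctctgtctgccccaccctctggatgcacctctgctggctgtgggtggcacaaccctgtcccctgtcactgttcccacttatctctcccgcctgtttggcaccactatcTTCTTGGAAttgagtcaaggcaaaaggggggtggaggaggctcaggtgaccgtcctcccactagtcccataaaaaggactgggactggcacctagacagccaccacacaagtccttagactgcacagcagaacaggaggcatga

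Some targets of BMP signalling were higher as well. Id1, an inhibitor of helix-loop-helix factors that BMP induces, had levels of -2.12, -1.36, 0.59 and 0.62, so that both metformin arrays exceeded both others, and was 6.53-fold higher. Atoh8, a helix-loop-helix factor of the same pathway, had levels of -1.68, -0.35, 0.30 and 0.39 and was 3.94-fold higher. The inhibitory genes Smad6 and Smad7 and the ligand Bmp6, named after their values were seen, lay at 0.97, 0.93 and 0.78 log2, short of 2-fold. Tfrc, the transferrin receptor of iron uptake, had levels of 2.13, no value, 0.31 and 0.65, highest in natural aging, and was 3.54-fold lower. Of the 25 compared genes of iron metabolism, 4 were higher and 2 lower. The list's median of -0.23 came to 0.01 under quantile scaling and 0.02 in the authors' series values, so the list as a whole has no direction.

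Several fetal growth genes were higher with metformin. In the list of imprinted growth genes, which are expressed from 1 parental copy and mostly before birth, 6 of 19 compared members were higher and none lower, with a median of 0.36. H19, an imprinted noncoding RNA, had levels of -4.33, 0.39, 1.98 and 1.11, lowest in natural aging and highest with metformin, and was 79.4-fold higher. Its neighbour Igf2, the fetal growth factor, had levels of dim, -2.65, 0.95 and -0.91 and was at least 44.3-fold higher. Over all settings, the lowest difference of Igf2 was 3.31 log2. From a second imprinted region, the noncoding RNA Meg3 had levels of -1.40, -3.83, 1.65 and 0.36 and was 8.27-fold higher, its other probes lying at 3.08 to 4.09 log2. Here the untreated diabetic array was below natural aging. Dlk1, a membrane protein of the same region, had levels of dim, -4.24, 0.53 and -2.42 and was at least 33.2-fold higher, with a lowest difference of 3.40 log2 over all settings.

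The separate list of fetal liver and liver tumour markers had 11 of 24 compared members higher and 2 lower, with a median of 0.70. On the untreated diabetic and combination arrays its medians against natural aging were -0.31 and -0.28. Afp, alpha-fetoprotein, had levels of -2.72, -0.84, 1.37 and -0.42 and was 17.1-fold higher. Gpc3, a glypican of the fetal liver, had levels of -3.35, -2.12, 0.49 and -0.71 and was 14.4-fold higher. Akr1c18, a reductase of progesterone, had levels of -3.64, -1.48, 1.64 and -1.21 and was 38.8-fold higher. Cbr3, a carbonyl reductase, had levels of -2.02, -0.42, 1.14 and -0.69 and was 8.95-fold higher. Metformin was the highest array for all of these 4 genes, with natural aging the lowest.

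Further genes with the largest measured differences belong to no list. Mybl1, a relative of the MYB transcription factor, had levels of -4.42, no value, 1.35 and -0.57 and was 54.6-fold higher. Ckap2, a protein of the mitotic spindle, had levels of -4.38, -2.27, 0.53 and -2.39 and was 30.2-fold higher. Defb1, a beta-defensin of epithelia, had levels of -3.64, -0.96, 0.72 and 0.37 and was 20.5-fold higher. For these 3 genes natural aging was the lowest and metformin the highest of the arrays with a value. On the lower side, Asic5, a bile acid-sensitive ion channel, had levels of 1.17, -0.99, -2.15 and -2.02, highest in natural aging, and was 10.01-fold lower.

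Interferon-stimulated genes, which cells switch on as an antiviral defence, were the list with the highest median after the female-biased one. Of 41 compared, 24 were higher and none lower, against 12.8% and 4.66% of all genes, and the median was 1.19 log2 (1.03 to 1.31 under the other scalings). The medians against natural aging were 0.27 on the untreated diabetic and -0.24 on the combination array. Usp18, a protease that removes ISG15 and damps interferon signalling, had levels of -1.02, 1.64, 1.92 and 1.43 and was 7.69-fold higher, but all 3 diabetic arrays stood together above natural aging. Oasl1, of the oligoadenylate synthetase family, had levels of -0.72, 0.68, 2.18 and -0.19, was 7.48-fold higher and had another probe at 3.05 log2. Oas1g, which makes the oligoadenylate that activates RNase L, had levels of -1.99, -1.93, 0.39 and -2.46, so that metformin alone was high, and was 5.21-fold higher. Cmpk2, a mitochondrial nucleotide kinase, had levels of -1.26, -0.41, 1.05 and -0.86 and was 4.96-fold higher. Of members chosen after their values were seen, Isg15 was at 1.44, 2.13, 2.94 and 1.09 and Ifit1 at 0.35, 1.41, 2.09 and no value. Irf1 (-0.20 log2), Bst2 (-0.37) and Ifitm3 (-0.37), named on the same footing, were not higher. Ifi202b, an interferon-inducible gene outside the list, was far lower with metformin and is given further below.

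The promoters of 3 of these genes are shown for the letters that the interferon-activated complex reads. The core searched was GAAA, any 2 bases and GAAA, read on either strand (on the other, TTTC, any 2 bases and TTTC), which 3.44% of all windows hold. Counted by gene, as the members are, the share is 3.99%. Of the 30 compared members with a RefSeq window, 17 (56.7%) held it, and 10 of these 17 were at least 2-fold higher. In the whole list, which includes these 17 and members without a window, 24 of 41 were, a similar share. Whether the core marks out the higher members was not tested. Bst2 and Ifitm3, which were not higher, held it too. Isg15 is on the minus strand at chr4:156200769-156201068, Ifit1 on the plus strand at chr19:34640639-34640938, and Oas1g on the minus strand at chr5:120887564-120887863, all in GRCm38.p6. Capitals mark the matches, which overlap in Isg15 and Oas1g.
Isg15: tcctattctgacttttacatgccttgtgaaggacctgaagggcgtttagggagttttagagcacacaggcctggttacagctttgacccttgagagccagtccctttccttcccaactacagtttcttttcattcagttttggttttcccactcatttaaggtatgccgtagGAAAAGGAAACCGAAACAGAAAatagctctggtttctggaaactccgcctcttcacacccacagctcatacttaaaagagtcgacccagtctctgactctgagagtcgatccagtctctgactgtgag
Ifit1: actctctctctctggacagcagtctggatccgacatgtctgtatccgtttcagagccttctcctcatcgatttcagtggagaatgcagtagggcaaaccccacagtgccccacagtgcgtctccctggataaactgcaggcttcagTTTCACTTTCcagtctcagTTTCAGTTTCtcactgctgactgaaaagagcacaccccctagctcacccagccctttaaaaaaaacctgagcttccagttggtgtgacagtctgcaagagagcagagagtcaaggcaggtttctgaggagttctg
Oas1g: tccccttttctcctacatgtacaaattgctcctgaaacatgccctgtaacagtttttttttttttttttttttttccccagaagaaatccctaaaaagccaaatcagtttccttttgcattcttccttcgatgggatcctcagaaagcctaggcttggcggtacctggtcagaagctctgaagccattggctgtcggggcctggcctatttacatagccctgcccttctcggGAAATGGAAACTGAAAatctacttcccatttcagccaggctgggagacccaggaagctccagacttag

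Many genes of T and NK cells were also higher with metformin. Of 32 compared genes of T, NK and B cells, 15 were higher and 3 lower, with a median of 0.86 (0.48 under normexp background correction). Against natural aging the medians were -0.90 on the untreated diabetic and -0.51 on the combination array. The list's summed level, in units of each array's 75th percentile, was 12.2 in natural aging, 6.64 in untreated diabetic, 21.5 in metformin and 9.14 in APS plus metformin. A member with no value on an array adds nothing to its sum, so the untreated diabetic and combination sums may cover fewer members. Cd3d, a chain of the T cell receptor complex, had levels of -2.58, -2.79, -0.19 and -2.25 and was 5.24-fold higher, with another probe at 2.54 log2. Cd6, a co-receptor of T cells, had levels of -3.45, -3.56, -1.01 and -3.33 and was 5.42-fold higher. Ccl5, a chemokine of T and NK cells, had levels of 0.04, -0.94, 2.41 and -0.31 and was 5.17-fold higher. Metformin was the highest array for all 3. The defining markers Cd3e (-2.39, -3.10, -1.25 and -2.96) and Nkg7 (-1.25, -3.44, 0.58 and -2.09) were higher too, whereas the B cell marker Cd79a was dim on all 4 arrays. The lower members were the NK and plasma cell genes Eomes, Ncr1 and Jchain (-1.01, -1.26 and -1.28 log2), named after their values were seen.

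Macrophage genes split. The list had 8 of 31 compared members higher and 3 lower, with a median of 0.22. Trem2, a lipid receptor of macrophages, had levels of -2.13, -0.81, 0.97 and -1.65 and was 8.54-fold higher. Gpnmb, a glycoprotein of lipid-laden macrophages, had levels of dim, -3.99, -1.22 and -3.85 and was at least 9.84-fold higher. Cx3cr1, a receptor of monocyte-derived cells, had levels of -3.82, -4.49, -0.87 and dim and was 7.74-fold higher. In each, metformin was the highest array. Cd163, the haemoglobin scavenger receptor of resident macrophages, had levels of 1.47, 0.75, -1.10 and -1.01 and was 5.92-fold lower, with both metformin arrays below both others. The Kupffer cell marker Clec4f lay at -0.84 log2 and Vsig4 at -0.06, both short of 2-fold.

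Among 36 compared chemokines and cytokines, 9 were higher and 1 lower, with a median of 0.45. Ccl7, a monocyte attractant, had levels of dim, dim, -1.49 and dim and was at least 8.15-fold higher. Ccl3, another attractant of leukocytes, had levels of -4.10, -2.15, -1.62 and -4.79 and was 5.58-fold higher. Cxcl1, an attractant of neutrophils, was the lower member, with levels of 3.38, 0.13, 0.95 and 0.29, highest in natural aging and 5.39-fold lower with metformin. Neutrophil granule genes had 4 of 17 compared members lower and 1 higher (median -0.59), with Ngp (-3.11, -4.08, dim and dim) at least 3.59-fold lower and Mmp8 (-2.75, dim, -4.17 and dim) 2.67-fold lower, or -0.99 log2 under normexp background correction. Chil3, a chitinase-like protein of myeloid cells, had levels of -1.53, -0.97, 0.48 and -3.11 and was 4.01-fold higher. Antigen presentation had 1 of 26 members higher, Tap1, the peptide transporter (1.47 log2, with another probe at 0.93), and a median at 0 that went to 0.26 with cyclic loess. The immediate-early list had 2 of 27 members higher and 2 lower. Ccn1, a matrix signal, was 7.30-fold higher (-4.13, -2.06, -1.26 and -2.07), and Maff, a small MAF factor, was 5.01-fold lower (1.24, -0.61, -1.08 and -0.18).

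Cell cycle and DNA replication genes were higher with metformin than on any other array for most of the examples below. Of 48 compared, 21 were higher and 4 lower, both above the shares of all genes (12.8% and 4.66%), with a median of 0.82 (0.72 to 0.88 under the other scalings). Against natural aging the medians were -0.47 on the untreated diabetic and -0.33 on the combination array. The list's summed level, which its bright members dominate, was nearly the same in natural aging (47.7) and metformin (48.16). It was 27.95 in untreated diabetic and 32.37 in the combination, where any member with no value is left out of the sum. Ccnb1, the mitotic cyclin B, had levels of -3.92, -3.91, -0.74 and dim and was 9.09-fold higher (error 0.25 log2). Prc1, which bundles the spindle midzone, had levels of -4.38, dim, -1.49 and dim and was 7.43-fold higher. Gins2, of the replication helicase, had levels of -2.95, -3.12, -0.63 and -3.03 and was 4.998-fold higher. Tpx2, a spindle assembly factor, had levels of dim, dim, -1.99 and dim and was at least 5.49-fold higher. These levels are low, all below the 75th percentile of their arrays. The proliferation marker Mki67 (-0.24, -2.85, 0.17 and -2.68), named after its values were seen, differed by 0.41 log2. The 4 lower members were Ccne1, Ccne2, E2f8 and Mcm10, a G1 cyclin pair, a repressor of the E2F family and a replication factor, also named after the fact.

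Targets of p53 and regulators of senescence had 11 of 31 compared members higher and none lower, with a median of 0.53, and the median on the untreated diabetic array was 0.65. Phlda3, an inhibitor of AKT that p53 induces, had levels of -3.13, 1.96, 1.95 and 0.97, with the untreated diabetic array level with metformin, and was 33.9-fold higher. Zmat3, an RNA-binding target of p53, had levels of -1.86, 0.28, 0.94 and 0.57 and was 6.98-fold higher. Psrc1, a microtubule protein, had levels of -4.30, -2.62, -0.39 and -2.39 and was 15-fold higher. Trp53inp1, a stress protein, was 5.30-fold higher (-2.67, -1.63, -0.26 and -1.21), but this turned to -0.62 log2 when outlier spots were kept and another probe stood for the gene. Cdkn1a, the cell cycle inhibitor p21, was 2.26-fold higher (0.45, 1.15, 1.63 and 0.11) and Mdm2, the p53 ligase, lay at 0.25 log2, both named after their values were seen.

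Heat shock chaperones were lower with metformin. Of 25 compared, 12 were lower and none higher, against 4.66% lower among all genes, and the median was -0.95 (-0.62 to -1.04 under the other scalings), or -0.75 against genes as bright. Against natural aging the medians were -0.30 on the untreated diabetic and -0.91 on the combination array. Hsph1, a nucleotide exchange factor for HSP70, had levels of 2.22, 1.41, -1.45 and -1.87, both metformin arrays lying far below both others, and was 12.7-fold lower with an error of 0.17 log2. The inducible HSP70 genes Hspa1a (1.83, 1.79, -1.23 and -3.22) and Hspa1b (3.75, 3.19, 0.45 and -0.66) were 8.35-fold and 9.84-fold lower. Their promoter windows are 98.7% identical (296 of 300 positions) and the genes are near-identical copies, so their probes may share target. Chac1, an enzyme that degrades glutathione in the stress response and not a chaperone, is counted in this list and in that of the amino acid response. It had levels of 1.67, -1.01, -1.96 and -1.22, was 12.4-fold lower and differed from the others in that the untreated diabetic array was low as well. Constitutive chaperones named after their values were seen were lower by less, Hspa8 at -1.21 and Hsp90aa1 at -0.93 log2, while Hsf1, the master regulator, lay at -0.22.

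The heat shock element that HSF1 binds was searched as GAA, any 2 bases, TTC, any 2 bases and GAA, on either strand (on the other, the same with GAA and TTC exchanged), which 0.603% of all windows hold. Counted by gene, as the members are, the share is 0.662%. Of 21 compared members with a window, 4 (19%) held it: Hsph1, Chordc1, Hspd1 and Hspe1. The windows of Hspa1a and Hspa1b, which were lower too, held no exact match, and elements with an imperfect unit were not searched. Hsph1 and Chordc1 were lower by 2-fold or more (-3.67 and -2.33 log2), and Hspd1 and Hspe1 were not (-0.65 and -0.62). The first pair is shown, Chordc1, a co-chaperone of HSP90, being chosen after its values were seen. Hsph1 is on the minus strand at chr5:149636287-149636586 and Chordc1 on the plus strand at chr9:18292017-18292316 (GRCm38.p6), and capitals mark the matches, which overlap in Chordc1.
Hsph1: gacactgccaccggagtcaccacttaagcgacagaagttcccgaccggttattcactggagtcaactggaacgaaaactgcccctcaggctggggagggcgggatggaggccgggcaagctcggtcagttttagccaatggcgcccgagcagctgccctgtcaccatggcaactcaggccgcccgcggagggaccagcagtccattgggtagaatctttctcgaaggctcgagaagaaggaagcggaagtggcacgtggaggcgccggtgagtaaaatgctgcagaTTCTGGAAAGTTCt
Chordc1: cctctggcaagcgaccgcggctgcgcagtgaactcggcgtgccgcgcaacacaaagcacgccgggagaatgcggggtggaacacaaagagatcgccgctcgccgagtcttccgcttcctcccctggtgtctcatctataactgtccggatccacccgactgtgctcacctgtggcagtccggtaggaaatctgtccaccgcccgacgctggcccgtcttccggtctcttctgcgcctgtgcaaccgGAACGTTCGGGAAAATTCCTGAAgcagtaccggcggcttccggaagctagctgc

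Chaperones of the endoplasmic reticulum were lower to a smaller degree. Of 29 compared, 6 were lower and none higher, with a median of -0.60 (-0.20 in the authors' series values), or -0.29 against genes as bright. Dnajb9, a cochaperone of BiP, had levels of 0.23, 0.14, -1.201 and -0.78 and was 2.70-fold lower. Creld2, a secreted folding factor, had levels of 3.65, 3.70, 2.32 and 1.54 and was 2.52-fold lower. Sdf2l1, a cochaperone of BiP, had levels of 2.90, 3.31, 1.67 and 1.24 and was 2.35-fold lower. For Creld2 and Sdf2l1, both arrays without metformin were above both with it, but under 3 of the 5 other scalings both came just short of 2-fold, at -0.97 and -0.94 log2 where nearest to 0. In the amino acid response, which ATF4 drives, 3 of 27 members were higher and 4 lower, and the median of -0.14 turned to 0.22 with cyclic loess. Chac1, given above, was the lowest member (-3.63 log2). Trib3, a pseudokinase that binds AKT, had levels of -0.79, 1.24, 1.96 and 1.95, higher in all diabetic arrays, and was 6.73-fold higher. Gdf15, a stress hormone that metformin is known to raise in blood, had levels of 0.37, 1.88, 2.61 and 1.56 and was 4.71-fold higher. Gpt2, the mitochondrial alanine transaminase, had levels of 1.16, no value, -0.74 and 1.06 and was 3.74-fold lower, but came to -0.41 log2 with outlier spots kept, which ends the call.

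**Figure D4:**
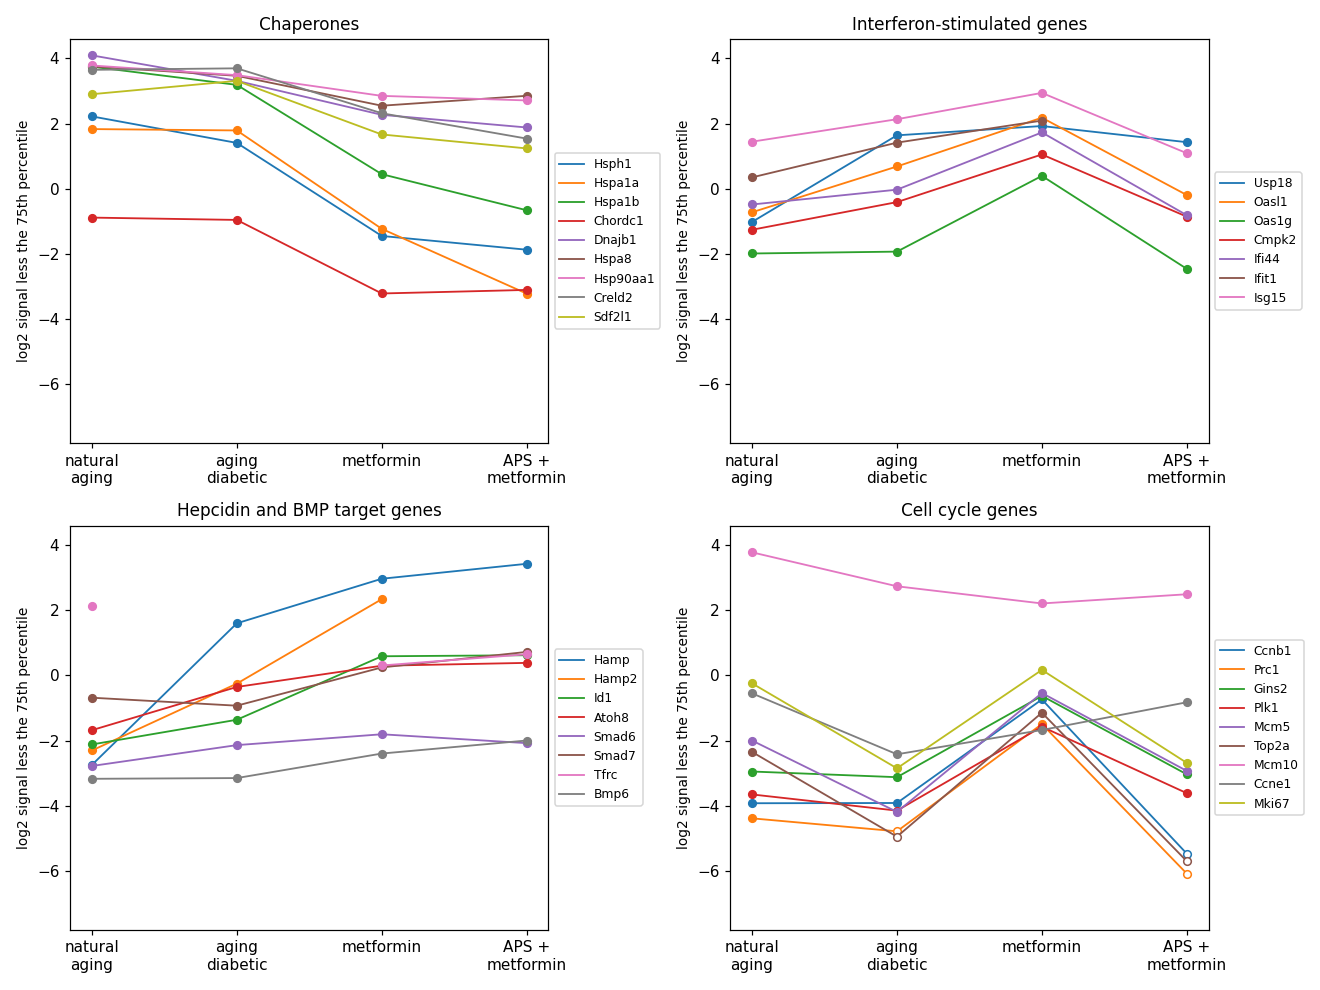
Levels of chaperones (top left), interferon-stimulated genes (top right), hepcidin and genes of BMP and iron regulation (bottom left) and cell cycle genes (bottom right) on the 4 arrays, 1 array a group (log2 signal less the 75th percentile); open circles are dim, gaps are outlier spots, and lines only join a gene's values. Hsph1, Hspa1a and Hspa1b are lower on both arrays with metformin than on both without it, Oas1g and Ccnb1 peak on the metformin array alone, and Hamp is lowest in natural aging.

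The list of genes that carry metformin or form its target kinase AMPK, which also counts the stress hormone Gdf15, lay near 0. Of 18 compared members, 4 were higher, among them Gdf15 as given above, and 1 was lower. The median of 0.01 turned to -0.07 when arrays were centred on the median of detected probes. Slc22a3, an organic cation transporter, had levels of -2.67, -1.80, -0.74 and -1.25 and was 3.80-fold higher. Prkaa2, a catalytic subunit of AMPK, had levels of -2.84, -4.18, -4.25 and dim and was 2.66-fold lower. It was the list's only lower member and came to -0.59 log2, under 2-fold, with outlier spots kept. Strada, a partner of its activating kinase LKB1, had levels of -3.23, -2.08, -1.27 and -2.31 and was 3.87-fold higher.

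Gluconeogenesis and insulin signalling had 2 of 28 members higher and 2 lower. G6pc, the last step of glucose release, had levels of 4.08, 3.63, 3.49 and 3.52, and Pck1, its first committed step, levels of 4.35, 4.04, 3.65 and 4.16. They differed by -0.59 and -0.70 log2, short of 2-fold. In the brightness band from 2 to 4, the median was -0.34 and the lower quartile -0.51. Both genes lay close to the band from 4 up, where these were -0.54 and -0.62. Ppargc1a, the coactivator of G6pc and Pck1, lay at 0.24. Irs2, an insulin receptor substrate, had levels of 2.15, 1.102, 0.61 and 1.45, highest in natural aging, and was 2.91-fold lower. Igfbp1, which insulin represses, had levels of 4.31, 3.45, 3.38 and 3.91 and differed by -0.92 log2. The glycogen-targeting subunits of protein phosphatase 1 went opposite ways: Ppp1r3c had levels of -2.19, -0.69, 0.77 and -0.12 and was 7.78-fold higher, and Ppp1r3g had levels of 2.21, -0.87, -1.16 and 2.13 and was 10.3-fold lower. For Ppp1r3g the combination array stood at the level of natural aging. Glucose uptake and glycolysis had 2 of 33 members higher and 5 lower. Its median of -0.52 was -0.09 under quantile scaling and -0.20 against genes as bright. Among the lower members was Slc2a4, a glucose transporter, with levels of -1.88, -1.97, -3.44 and -3.08 and 2.93-fold lower.

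Lipogenesis had 5 of 25 members higher and 3 lower, with a median of -0.62 that was -0.22 under quantile scaling and, over members measured on both arrays, -0.30 against genes as bright. Mogat1, which makes diacylglycerol, had levels of -2.48, 0.97, 2.23 and 0.84, highest with metformin, and was 26.2-fold higher. Mogat2, its relative, had levels of dim, -2.25, -0.47 and -1.39 and was at least 16.5-fold higher. Srebf1, the regulator of the pathway, lay at -0.65 log2 (3.23, 2.24, 2.58 and 2.54), and Fasn and Scd1 had outlier spots and were not compared. Lipid droplet genes had 4 of 22 members higher and 1 lower, with a median of -0.03 that was 0.14 under quantile scaling. Plin4, a coat protein, had levels of -1.5, -1.37, 1.06 and 0.97, high on both metformin arrays, and was 5.90-fold higher. G0s2, an inhibitor of lipolysis, had levels of 0.06, 1.63, 1.85 and -1.27 and was 3.45-fold higher, while the combination array was low. Lpl, the lipoprotein lipase, had levels of 0.95, 1.78, 2.63 and 1.29 and was 3.20-fold higher, with another probe at 2.29 log2. Fatty acid oxidation had 5 of 42 members higher and 1 lower, no more than the shares of all genes (12.8% and 4.66%), and its median of -0.31 turned to 0.16 under quantile scaling. Cyp4a31 (1.71, 3.51, 3.24 and 3.64), another fatty acid hydroxylase, was 2.89-fold higher and another probe lay at 4.72 log2. Cpt1a, the gate of mitochondrial oxidation, lay at -0.38 log2 and came to 0.05 under an alternative scaling. Acsl4, an activator of long-chain fatty acids, was 2.58-fold lower (1.85, 0.62, 0.49 and 0.70), or -0.95 log2 with outlier spots kept.

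Cholesterol synthesis had 6 of 28 members higher and none lower, with a median of 0.28 (0.20 to 0.55 under the other scalings), against -0.45 on the untreated diabetic array relative to natural aging. Over members measured on both arrays, the median was 0.51 against genes as bright. Sqle, squalene epoxidase, had levels of -0.08, -1.05, 1.65 and 1.25, both metformin arrays above both others, and was 3.34-fold higher. Mvd, of the mevalonate pathway, had levels of -1.54, -0.38, 0.00 and -1.04 and was 2.90-fold higher. Nsdhl, a later step, had levels of 0.92, no value, 2.28 and 1.76 and was 2.57-fold higher. Bile acid genes had 4 of 29 members higher and 5 lower, with a median of -0.44 that was -0.16 under quantile scaling. Cyp7a1, which limits the rate of bile acid synthesis, had levels of -1.09, 2.502, 1.78 and 2.89, low in natural aging alone, and was 7.29-fold higher. The basolateral exporters Slc51b (-2.84, -0.92, 0.56 and -0.74) and Abcc4 (-2.33, 0.16, 0.67 and 0.44) were 10.6-fold and 8.04-fold higher. Apolipoproteins had a median of -0.48 (0.00 under quantile scaling) and 1 of 23 members lower, Lipc, the hepatic lipase (2.35, 1.58, 1.29 and 1.99; 2.08-fold, under 2-fold with 4 of the 5 other scalings), and none higher. Apob lay at -0.95 log2 but its other probe at 1.16.

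Among detoxifying enzymes, glutathione and NRF2 target genes had 8 of 42 members higher and 1 lower, and the median of -0.17 turned to 0.23 under quantile scaling. Mgst2, a membrane glutathione transferase, had levels of dim, -2.66, 0.97 and 0.94 and was at least 44.8-fold higher. Gsta2, a glutathione transferase, had levels of 0.14, 2.86, 3.27 and 3.38, high on all diabetic arrays, and was 8.72-fold higher. Nqo1, a quinone reductase that NRF2 induces, had levels of -1.99, -0.21, 0.79 and 0.64 and was 6.87-fold higher. Cytochromes P450 of families 1 to 3 had 5 of 34 members higher and 3 lower, with a median of -0.43 that was 0.01 under quantile scaling. Cyp1b1, a metaboliser of estrogens and polycyclic hydrocarbons, had levels of -4.05, -4.13, -1.85 and -2.28 and was 4.62-fold higher, and Cyp2g1 had levels of -0.78, -0.83, 0.97 and 2.04 and was 3.36-fold higher. Sulfotransferases and glucuronosyltransferases together had 11 of 26 members higher and 3 lower. Their median of 0.36 was -0.30 over genes measured on both arrays.

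Genes of the hepatocyte itself were among the brightest, and few reached 2-fold. The hepatocyte identity list had 2 of 23 members lower and none higher, and 22 of the 23 lay below 0. Its median of -0.67 was -0.13 in the authors' series values and -0.21 against genes as bright. Alb, the albumin gene, lay at -0.67 log2 (4.74, no value, 4.06 and no value) and Fga, a fibrinogen chain, was 2.85-fold lower (4.27, 3.54, 2.76 and 2.98). The defining markers Ttr, Apoa1, Hnf4a and Asgr1 were bright on every array with a value and differed by -0.72, -0.77, -0.56 and -0.62 log2. No gene of the respiratory chain (59 compared) and none of the urea cycle and amino acid breakdown list (36) reached 2-fold. The respiratory chain median of -0.42 came to 0.06 under quantile scaling, and that of the urea cycle list moved from -0.35 to 0.08. Against genes as bright, these medians were -0.08 and -0.02. Acute phase genes had 1 of 23 members lower, Fga, and a median of -0.60 (-0.08 in the authors' series values, and -0.25 against genes as bright), with Hpx, hemopexin, at -0.83 log2. Pericentral genes had 6 of 20 members higher and none lower, with a median of -0.28 that was 0.11 under quantile scaling. Rnf43, a brake on WNT receptors, had levels of -2.37, -0.12, 0.48 and 0.40, low in natural aging alone, and was 7.18-fold higher, and Axin2, a WNT target, had levels of dim, -3.13, -2.54 and -2.32 and was at least 3.93-fold higher. Periportal genes had 1 of 14 members higher, Etnppl (1.13 log2), and 1 lower, the protease gene Ctsc (-1.64 log2, or -0.93 with outlier spots kept), with a median of -0.58 (-0.07 under quantile scaling). Sirtuins and related genes had none of 11 past 2-fold, Sirt3 lying at -0.53 and Nmnat3 at 0.93 log2.

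**Figure D5:**
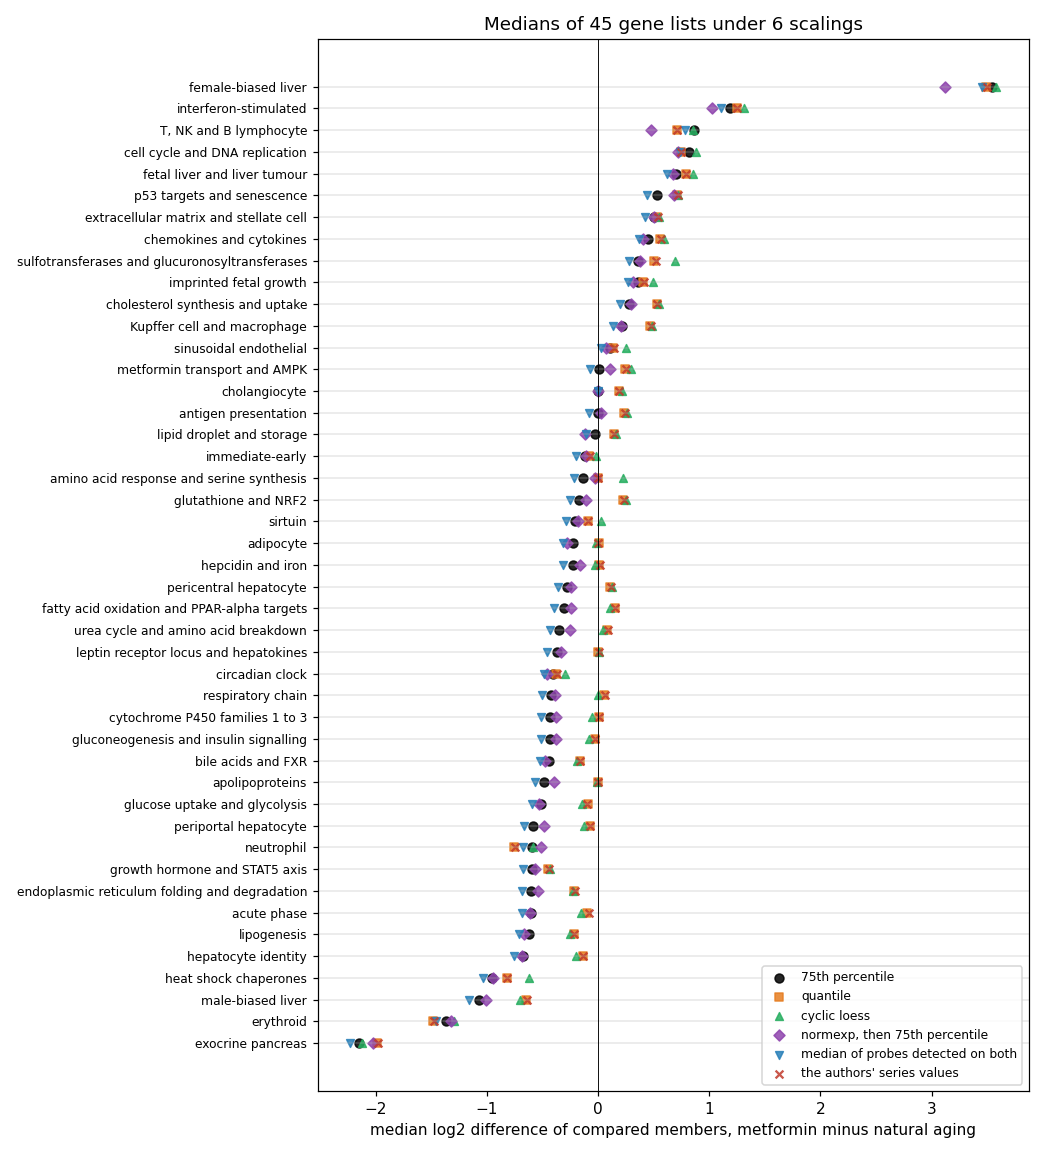
Median log2 difference (metformin minus natural aging) of the compared members of 45 gene lists, sorted by the main scaling, under 6 scalings of the same 2 arrays. Medians of the outermost lists, such as female-biased liver (3.54) and exocrine pancreas (-2.15), keep their side in all 6, while those of bright lists such as the respiratory chain (-0.42 to 0.06) move across 0.

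Genes of the exocrine pancreas, whose defining markers Cpa1 (2.79, -2.25, -0.25 and dim) and Cel (1.87, -3.18, -1.83 and dim) were bright on the natural aging array, were lower on the metformin array for 23 of 27 compared members. The list's median was -2.15, and against natural aging it was -3.95 on the untreated diabetic and -5.68 on the combination array. Its summed level was 151.6 in natural aging, 20.0 in untreated diabetic, 44.5 in metformin and 12.6 in the combination. Any member with no value on an array is again left out of that array's sum. Amy2b, a pancreatic amylase, had levels of 2.30, -4.41, -3.44 and dim and was 53.4-fold lower. Rnase1, the pancreatic ribonuclease, had levels of 0.15, dim, -4.54 and dim and was 25.8-fold lower. Spink1, a trypsin inhibitor that other tissues also make, went the other way, with levels of -0.96, 0.00, 2.35 and -0.97, 9.88-fold higher. The part of pancreatic RNA in other differences was not tested.

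Red cell genes had 7 of 11 compared members lower and none higher, with a median of -1.37, or -0.78 over members measured on both arrays. Slc4a1, the anion exchanger of red cells, had levels of 0.46, -3.97, -2.18 and -2.21, highest in natural aging, and was 6.25-fold lower. Ermap, another membrane protein of red cells, had levels of -2.79, dim, dim and dim and was at least 4.46-fold lower, but with outlier spots kept it came to -0.66 log2, under 2-fold. The haemoglobin gene Hba-a1 differed by -0.41 log2.

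Extracellular matrix and stellate cell genes had 11 of 39 compared members higher and 1 lower, with a median of 0.50, against -0.66 on the untreated diabetic array relative to natural aging. The list's summed level was nearly the same in natural aging (93.49) and metformin (92.07). It was 54.95 in untreated diabetic and 80.71 in the combination, leaving out any member with no value there. Mmp2, a gelatinase, had levels of -4.23, -4.12, -2.22 and -3.37 and was 4.03-fold higher. Eln, elastin, had levels of -2.97, -2.73, -0.97 and -1.71 and was 3.99-fold higher. Tgfb2, a fibrogenic ligand, had levels of -3.56, -3.42, -1.72 and -3.33 and was 3.58-fold higher. Metformin was the highest array for all 3. The stellate cell marker Pdgfrb lay at 0.30 log2, and Reln was dim on all 4 arrays. Sinusoidal endothelial genes had 1 of 26 members higher, Wnt9b, a ligand of the zonation pathway (-3.79, -2.62, -2.66 and -1.31; 2.18-fold, or 0.78 log2 under normexp background correction), with Stab2 and Pecam1 at -0.43 and -0.59 log2. Cholangiocyte genes had 2 of 15 higher as bounds, Ggt1 and Sctr (the latter 0.84 log2 under normexp background correction), with Krt7, Krt19 and Epcam at 0.27, -0.49 and -0.03 log2. Adipocyte genes had 2 of 14 higher and 1 lower, with a median of -0.23 that was 0.01 under quantile scaling. The adipocyte marker Adipoq lay at -0.20 log2 and Plin1 was dim on all 4 arrays. Cfd, adipsin, had levels of -3.05, -2.67, -0.38 and -4.17, highest with metformin, and was 6.40-fold higher.

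Some genes were lowest on the metformin array. Lepr, the leptin receptor, had levels of -0.50, 1.05, -3.31 and -0.19, the untreated diabetic array highest, and was 6.98-fold lower; its other probe lay at -1.46 log2. Ifi202b, an interferon-inducible sensor of DNA, had levels of 0.53, 0.04, dim and -0.69 and was at least 44.8-fold lower. Cd207, langerin, a receptor of dendritic cells, had levels of 1.07, -1.09, -3.13 and 0.14 and was 18.3-fold lower. In the list of the leptin receptor locus and hepatokines, 5 of 29 members were higher and 2 lower. Its median of -0.37 came to 0.01 in the authors' series values. Enho, which encodes adropin, had levels of 2.77, 2.40, 1.23 and 1.35 and was 2.93-fold lower, with another probe at -1.75 log2. Circadian clock genes had 3 of 24 members lower and none higher (median -0.40). Nfil3, a repressor of the clock output, had levels of 2.12, 0.48, 0.73 and -0.40 and was 2.62-fold lower, and the period genes Per2 (0.73, 0.08, -0.45 and -1.25) and Per3 (-0.91, -0.31, -2.13 and -0.93) were 2.27-fold and 2.33-fold lower, Per2 having another probe at -0.29 log2.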

How the data were processed

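Whole-liver RNA was measured on 4 one-colour Agilent mouse arrays (red channel, Cy5, 0.5 ug RNA per labelling), 1 per group, all on 1 slide and read in 1 scan per the file headers. Per the file headers, the deposited intensity of each spot came from Agilent Feature Extraction, with background subtraction and detrending done there; the headers name version 11.5.1.1 and the submitters' processing notes version 10.7. Other columns of these files, per the file headers, are an error and flags of 0 or 1. The deposited series table holds log2 values, made per the labels' protocols in GeneSpring with a normalization that is not given in the sources used here; its column medians are all 7.84.

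Using pandas 2.3.3 and numpy 2.4.6 in Python 3.11.15, and limma 3.58.1 in R 4.3.3 for alternatives, log2 of the processed signal less each array's 75th percentile was taken over non-control spots. Outlier spots were left out, which removed 3612 of 56605 probes. The 300 probes spotted 10 times were averaged. Their SD within an array had a median between 0.058 and 0.070 log2. Accessions of 33767 probes matched gene symbols in the RefSeq table of GRCm38.p6, and 22838 matched none. Where a gene had more than 1 usable probe (7030 genes), the brightest on average over the 4 arrays was used. The other probes of called genes had the same sign in 84.6% of 454 cases and were past 2-fold the same way in 47.1%. A bound sets the dim array to its own signal or to its lowest signal well above background, whichever is higher. No spot was saturated. With 1 array a group no test was run, and the number of arrays limits the precision.

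The 46 gene lists and the comparison were chosen with earlier results of these data known; 172 list entries were not compared for want of a usable or matched probe and 37 because they were dim on both arrays. Named genes are the 15 largest measured differences in each direction, the 5 largest bounds in each direction, up to 4 members per list and 13 fixed genes, less genes without a known function and some that are not reported here; other genes, including some drawn in the figures, are marked in the text or were chosen after their values were seen. Alternatives were quantile and cyclic loess normalization, normexp background correction with an offset of 50 (on median signals, as mean signals were not used here), median centring, the authors' series values, outlier spots kept, probes averaged, and other filters and thresholds. The calculation was tested on simulated data.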

Additional observations from a re-analysis of the deposited data

How the results depend on the processing

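No paired analysis was possible because each group has 1 array, and no array could be left out in turn for the same reason. The main setting called 2788 genes at 2-fold, 2045 higher and 743 lower. Over the 5 other scalings, the count of called genes ran from 2228 (normexp background correction) to 2868 (cyclic loess), and the share of calls that were higher from 66.1% to 77.4%, against 73.4%. Cyclic loess moved the median of all compared genes by 0.13 log2, which fold changes under that setting include. Genes past the threshold numbered 892 higher and 271 lower (1163 in all) at 3-fold, and 3647 higher and 2201 lower (5848 in all) at 1.5-fold. With no filter on detection they were 4730 in all and 3626 higher, since dim probes then enter at their own signal. Over genes detected on both arrays, 1326 were higher, since bounds are left out.

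Of 153 named genes past 2-fold, 147 to 153 stayed past it under the 5 other scalings, and none changed sign. Trp53inp1 was reversed, at -0.62 log2, with outlier spots kept; 147 of the 153 stayed past 2-fold under that setting. Limits of signal over background touch mainly the 2156 genes detected on the metformin array alone and the 284 on natural aging alone, whose size of difference is unknown above the bound. The bounds themselves moved with the setting.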
